A study of Mus musculus with 14 samples.

Results

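St14 encodes matriptase, a serine protease anchored in the membrane of epithelial cells. Its transcript was examined with those of Prss8, Spint1 and Spint2 in whole eyes of newborn mice with a conditional knockout of 1 of 2 chromatin remodelling ATPases. These 4 genes were chosen from a result of the same arrays: with 1 probe set per gene, St14 was 1 of 2 genes called in the comparison of Snf2h knockout with wildtype eyes (0.0161% of 12393 genes), and the other 3 encode its known protease partner and inhibitors. The values of the Snf2h experiment are therefore given as a description, with no test, and tests are given for the Brg1 experiment only. The array held 5 probe sets for the 4 genes, 1 each for St14, Prss8 and Spint1 and 2 for Spint2, among 20380 probe sets with a single gene.

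The arrays measured total RNA of whole eyes at postnatal day 1 in 14 samples. Snf2h lens-conditional knockout (cKO) eyes (n = 4) and their wildtype eyes (n = 4) were C57BL/6. Brg1 cKO eyes (n = 3) and their wildtype eyes (n = 3) came from a mixed background, and the labels name neither the cells in which Brg1 was deleted nor the Cre driver of either knockout. Snf2h, the product of Smarca5, drives ISWI remodelling complexes, and Brg1, the product of Smarca4, drives SWI/SNF remodelling complexes.

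Matriptase is made as an inactive precursor and is activated by cleavage at epithelial surfaces. Prostasin, the product of Prss8, is a serine protease held by a lipid anchor, and in mouse epidermis it acts with matriptase in barrier formation. The products of Spint1 and Spint2 (HAI-1 and HAI-2) are membrane proteins with Kunitz domains that inhibit both proteases, and in mice the defects caused by loss of either inhibitor are lessened by loss of matriptase. In the eye these genes are mainly associated with surface epithelium, which a whole-eye sample holds together with lens, retina and stroma.

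The median intensity of an array was 101 to 114. Snf2h cKO replicates 1 and 2 were near-identical: the SD of their log2 differences over all probe sets was 0.22, whereas it was 0.42 to 0.72 for each of the remaining 17 within-group pairs. Wildtype replicate 3 of the Snf2h experiment stood apart in 14 markers of cornified skin, with a mean log2 level of 7.13, while the remaining wildtype arrays had 4.73 to 5.17. Its log2 difference between the 3' and the 5' probe set of Gapdh, a sign of RNA degradation, was also high at 4.47, compared with 0.77 to 0.99 in Snf2h cKO and 1.09 to 1.46 in the remaining wildtype arrays. The deleted genes themselves gave a mixed picture in whole eyes. The 3 probe sets of Smarca5 had changes of −0.50, −0.19 and 0.31 in Snf2h cKO eyes, and the 2 of Smarca4 had −0.74 and 0.049 in Brg1 cKO eyes (adjusted p = 0.579 and 0.972 by limma). In the other knockout, in the same order, Smarca5 had −0.20, −0.0025 and −0.27 and Smarca4 had 0.89 and −0.33.

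St14 was about 2 times as high in Snf2h cKO eyes as in their wildtype eyes. Probe set 1418076_at had intensities of 254, 228, 209 and 246 in Snf2h cKO replicates 1 to 4, against 102, 114, 115 and 114 in wildtype replicates 1 to 4. All 4 knockout arrays lay above all 4 wildtype arrays, and the spread within each group was narrow. The log2 level was 7.87 ± 0.13 in Snf2h cKO and 6.80 ± 0.08 in wildtype eyes (SD, n = 4 each), a change of 1.07 ± 0.13 (SE), or 2.10-fold. This contrast chose the gene, so nothing is read from the separation of its groups, which 6.52% of all probe sets showed in the same direction. An increase at least as large was found for 82 of 12393 genes, St14 included. With Snf2h cKO replicates 1 and 2 averaged as 1 sample, at a level of 7.91, the change of St14 was 1.06 ± 0.15. Leaving out any 1 array gave changes of 1.03 to 1.12. In bulk eyes, more cells that express a gene and more RNA per cell cannot be told apart.

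**Figure D1:**
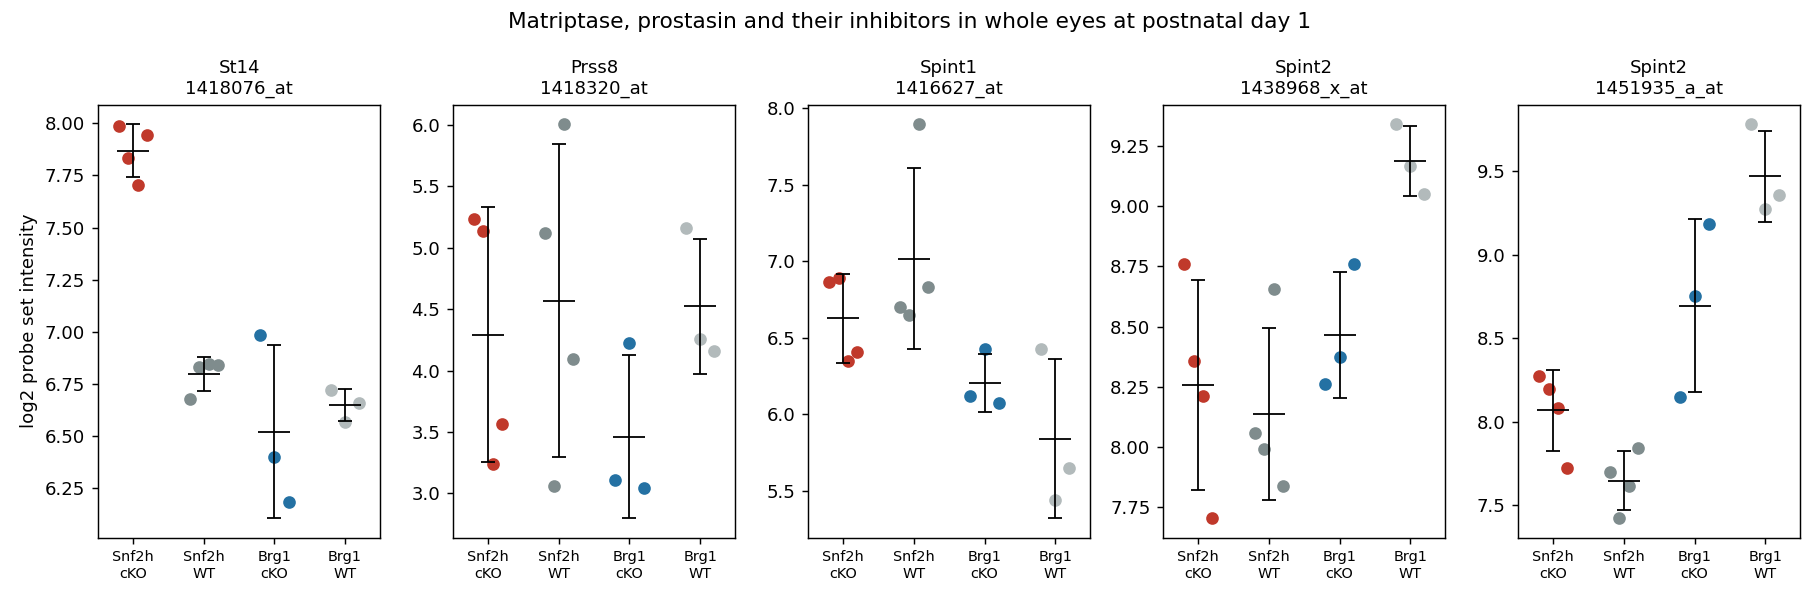
Log2 intensity of the 5 probe sets of St14, Prss8, Spint1 and Spint2 (vertical axes, each with its own range) in Snf2h cKO, Snf2h wildtype, Brg1 cKO and Brg1 wildtype eyes; points are arrays in order of replicate number, and bars are the mean and SD. The 4 Snf2h cKO arrays lie at 7.71 to 7.99 for St14, above the other 10 arrays, and Spint2 is highest in Brg1 wildtype eyes on both probe sets.

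In Brg1 cKO eyes no difference of St14 was called. Its intensities were 127, 84.4 and 72.6 in Brg1 cKO replicates 1 to 3, against 105, 94.8 and 101 in wildtype replicates 1 to 3. Replicate 1 of the knockout lay above every wildtype array and replicates 2 and 3 below, so the knockout arrays enclosed the wildtype range. The log2 level was 6.52 ± 0.42 in Brg1 cKO and 6.65 ± 0.08 in wildtype eyes (SD, n = 3 each). The change was −0.13 ± 0.23 (SE, 95% interval −0.67 to 0.41, adjusted p = 0.929 by limma over all probe sets). The difference between the 2 experiments was not tested, since the Snf2h values chose the gene.

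Across the groups, St14 was highest in Snf2h cKO eyes, followed by Snf2h wildtype, Brg1 wildtype and Brg1 cKO eyes. Only the first step in this order separated neighbouring groups without overlap. That step is the contrast that chose the gene, so nothing is read from it, and 6.52% of all probe sets showed the same separation. The ranges of the Snf2h wildtype arrays (6.68 to 6.84) and the Brg1 wildtype arrays (6.57 to 6.72) overlapped, although strain background and experiment differed between them.

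None of the partner genes was called in Brg1 cKO eyes. Of the 5 probe sets, 0 passed an adjusted p of 0.05, against 127 of 20380 over the array (0.623%; 74 higher and 53 lower, the lower ones 0.26%). At an unadjusted p under 0.05 by limma there were 3 of 5, both Spint2 probe sets and Prss8, all lower, against 8.13% of all probe sets. The Spint2 probe sets measure 1 gene and are not independent.

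Prss8 was dim and variable. Its intensities were 8.64, 18.7 and 8.27 in Brg1 cKO replicates 1 to 3, against 35.7, 19.1 and 17.9 in wildtype replicates 1 to 3. The knockout arrays were lower on average, but replicate 2 lay within the wildtype range. The log2 level was 3.46 ± 0.66 in Brg1 cKO and 4.52 ± 0.55 in wildtype eyes, and the change of −1.06 ± 0.39 (SE, 95% interval −1.98 to −0.14, adjusted p = 0.518) did not pass the test. In the Snf2h experiment the intensities were 37.7, 35.2, 9.44 and 11.8 in cKO replicates 1 to 4, against 34.7, 8.32, 64.2 and 17.1 in wildtype replicates 1 to 4. These ranges overlapped broadly, and the near-identical cKO replicates 1 and 2 were the high ones. The change was −0.27 ± 0.66, or −0.57 ± 0.70 with that pair averaged. It ranged from −0.78 without wildtype replicate 2 to 0.20 without wildtype replicate 3, the array with high skin markers, and was 0.077 without cKO replicate 3. On average Prss8 ranked between the 17th and 27th percentile of all probe sets in each group, a range in which background compresses fold changes, and no detection calls came with the values. The order of its group means was Snf2h wildtype, Brg1 wildtype, Snf2h cKO and Brg1 cKO, and every pair of neighbours overlapped.

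Spint1, the gene of the inhibitor HAI-1, had small changes of opposite sign in the knockouts. Its intensities were 69.4, 85.9 and 67.4 in Brg1 cKO replicates 1 to 3, against 86.1, 43.5 and 50.3 in wildtype replicates 1 to 3. The knockout values lay within the wildtype range. The log2 level was 6.21 ± 0.19 in Brg1 cKO and 5.84 ± 0.52 in wildtype eyes, with a change of 0.36 ± 0.28 (SE, 95% interval −0.28 to 1.01, adjusted p = 0.804). The change was 0.66 without wildtype replicate 1 and 0.17 without wildtype replicate 2. In the Snf2h experiment the intensities were 117, 119, 81.6 and 84.7 in cKO replicates 1 to 4, against 104, 100.2, 238 and 114 in wildtype replicates 1 to 4. Wildtype replicate 3 was far above the other 7 arrays. The change was −0.39 ± 0.28, or −0.47 ± 0.31 with cKO replicates 1 and 2 averaged, and it shrank to −0.097 without wildtype replicate 3. That array also had the highest Prss8 value of all 14, while its St14 value was close to those of wildtype replicates 2 and 4. The part of the skin markers in these values was not tested.

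Spint2, the gene of the inhibitor HAI-2, was lower in every Brg1 cKO array than in every wildtype array, but the difference did not pass the test. Probe set 1438968_x_at had intensities of 307, 332 and 434 in Brg1 cKO replicates 1 to 3, against 649, 575 and 531 in wildtype replicates 1 to 3. Probe set 1451935_a_at had 284, 432 and 582 in Brg1 cKO replicates 1 to 3, against 880, 619 and 655 in wildtype replicates 1 to 3. On both, every knockout array lay below every wildtype array, as 6.2% of all probe sets did. The first was at 60.7% of wildtype (log2 level 8.47 ± 0.26 in Brg1 cKO and 9.19 ± 0.15 in wildtype eyes; change −0.72 ± 0.19 SE, 95% interval −1.18 to −0.27, adjusted p = 0.28). The second was at 58.5% (8.70 ± 0.52 in Brg1 cKO and 9.47 ± 0.27 in wildtype eyes; change −0.77 ± 0.29, 95% interval −1.45 to −0.097, adjusted p = 0.525). Leaving out any 1 array of the Brg1 experiment gave changes of −0.62 to −0.87 for the first and −0.50 to −1.02 for the second, whose smallest change was without cKO replicate 1. Brg1 cKO replicate 3 was the nearest to wildtype on both probe sets.

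In Snf2h cKO eyes neither probe set of Spint2 had a lower mean than in wildtype eyes. Probe set 1438968_x_at had intensities of 434, 327, 296 and 208 in Snf2h cKO replicates 1 to 4, against 267, 255, 403 and 229 in wildtype replicates 1 to 4. The groups overlapped, with a change of 0.12 ± 0.25 (0.022 ± 0.26 with cKO replicates 1 and 2 averaged), which turned to −0.046 without cKO replicate 1. Probe set 1451935_a_at had 310, 293, 271 and 211 in cKO replicates 1 to 4, against 208, 172, 196 and 229.7 in wildtype replicates 1 to 4. Here 3 of 4 knockout arrays lay above all wildtype arrays, and the change was 0.42 ± 0.16 (0.37 ± 0.18 with the pair averaged). The probe sets thus differed in size of change but both means were higher in Snf2h cKO and lower in Brg1 cKO eyes than in their own wildtype eyes.

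**Figure D2:**
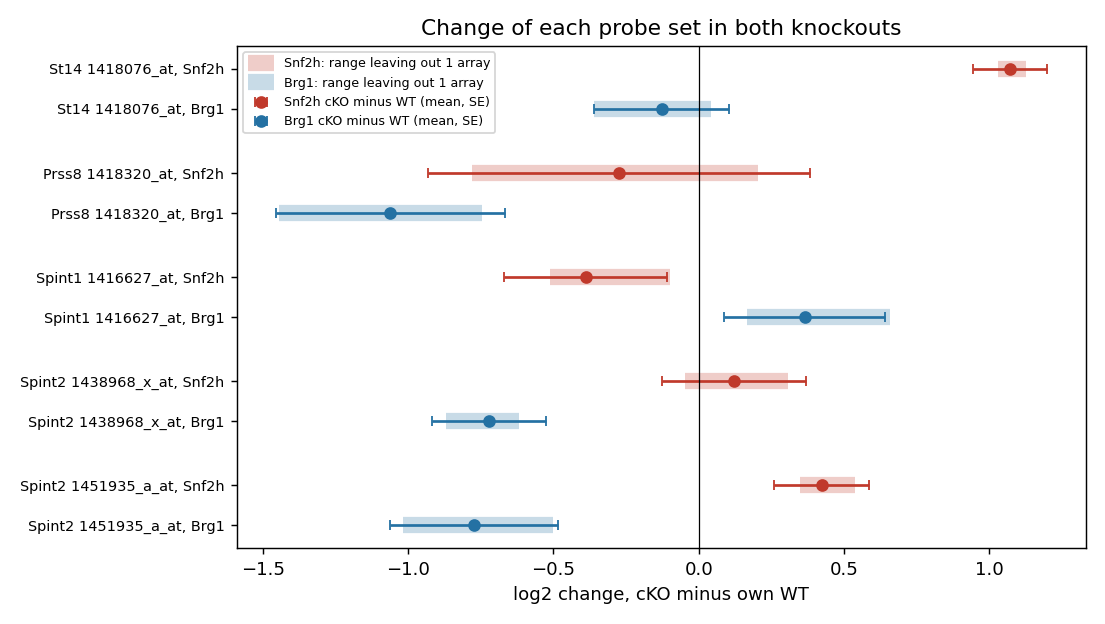
Log2 change of each probe set, cKO minus its own wildtype (horizontal axis), for the Snf2h experiment (red) and the Brg1 experiment (blue); points with bars are the mean change and its SE, and pale bars span the changes with each array left out in turn. St14 stands at 1.07 in the Snf2h experiment and at −0.13 in the Brg1 experiment, and both Spint2 probe sets lie below 0 in the Brg1 experiment for every array left out.

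Between the wildtype eyes of the experiments, the means of Spint1 and Spint2 differed more than those of St14 and Prss8. Spint2 averaged 9.19 in Brg1 wildtype and 8.14 in Snf2h wildtype eyes on 1438968_x_at, a difference of 1.05, and 9.47 and 7.65 on 1451935_a_at, a difference of 1.82. Spint1 averaged 5.84 in Brg1 wildtype and 7.02 in Snf2h wildtype eyes, a difference of −1.18. The Snf2h wildtype mean of Spint1 includes the outlying replicate 3, at 7.89. The wildtype arrays did not overlap on these 3 probe sets, as was so for 21.9% of all probe sets with Brg1 wildtype above and 22.5% with it below. The wildtype differences of St14 (−0.15) and Prss8 (−0.045) were within the overlap of their arrays. Prss8 was dim, and its Snf2h wildtype arrays spanned 3.06 to 6.00, so its small difference says little. Strain, experiment and any separate normalisation cannot be told apart in this comparison. On both probe sets the order of Spint2 was Brg1 wildtype, Brg1 cKO, Snf2h cKO and Snf2h wildtype, and on both the Brg1 cKO range overlapped that of Snf2h cKO. The order of Spint1 was Snf2h wildtype, Snf2h cKO, Brg1 cKO and Brg1 wildtype, with overlap between all neighbours.

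The protease was also set against each inhibitor within an array, where only the change between groups has meaning. St14 minus Spint1 ranged from 0.94 to 1.54 in Snf2h cKO and from −1.05 to 0.18 in wildtype arrays, a change of 1.46. The lowest wildtype value was that of replicate 3, which was outlying for Spint1, and the change was 1.18 without that array. The group means of St14 minus Spint2 differed by 0.95 on 1438968_x_at and by 0.65 on 1451935_a_at in the Snf2h experiment, again with no overlap between the groups. These shifts contain the St14 values that chose the gene, so nothing is read from their size or from the lack of overlap. In the Brg1 experiment the difference of means for St14 minus Spint1 was −0.49, with overlapping ranges of −0.027 to 0.87 in cKO and 0.29 to 1.12 in wildtype arrays. It was −0.77 without Brg1 cKO replicate 1, −0.75 without wildtype replicate 1 and −0.32 without cKO replicate 2. For St14 minus Spint2 it was 0.59 on 1438968_x_at and 0.65 on 1451935_a_at, and Brg1 cKO replicate 1 was the highest array on both. Without that array the values were 0.26 and 0.14, and without cKO replicate 3 they were 0.91 and 1.06.

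**Figure D3:**
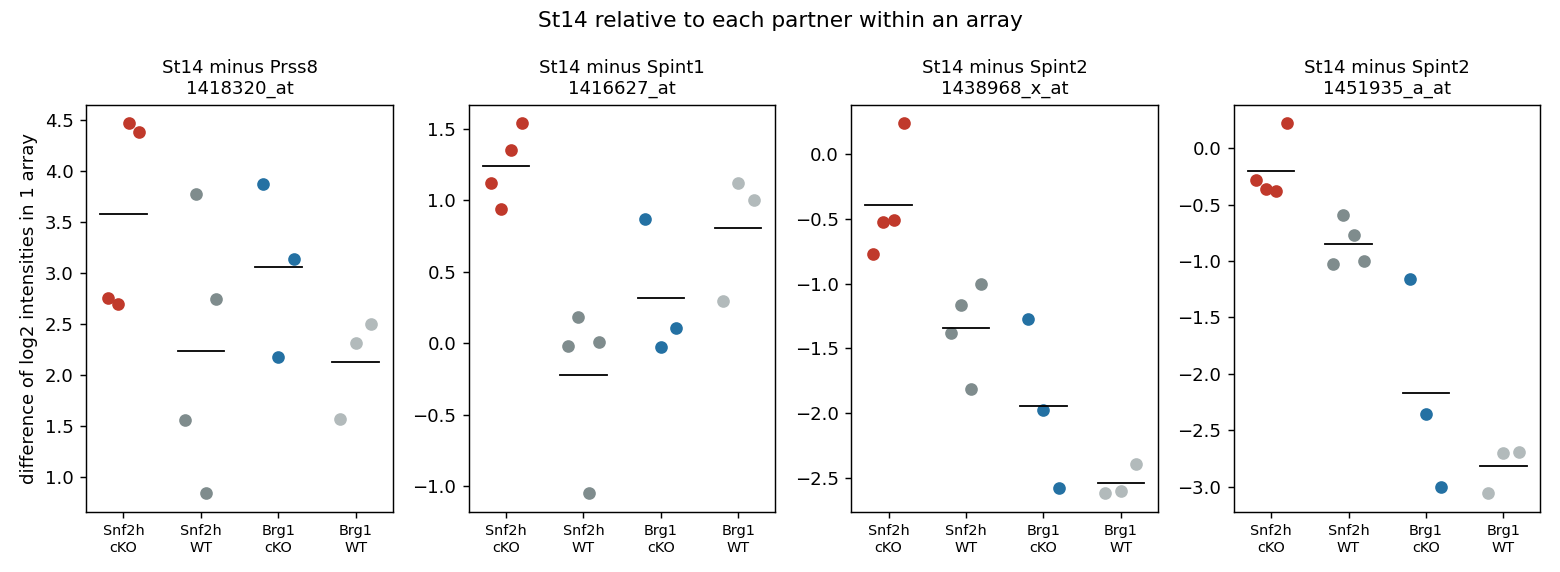
Difference of the log2 intensities of St14 and each partner probe set within 1 array (vertical axes, each with its own range) in the 4 groups; points are arrays and lines are group means. The difference to Spint1 and Spint2 is higher in all Snf2h cKO arrays than in all Snf2h wildtype arrays, and the Brg1 groups overlap. The Snf2h separation contains the St14 values that chose the gene, so nothing is read from it.

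Other genes of the pathway were mostly not called in Brg1 cKO eyes, where 0.623% of all probe sets were called. Of 9 measured type II transmembrane serine proteases, the family of matriptase, 0 were called, with a median change of −0.21 against 0.017 over all genes. Tmprss2 had −0.83 ± 0.25 (SE, adjusted p = 0.378) and the hepsin gene Hpn −0.48 ± 0.16 (0.43) by limma. Of 15 measured substrates and targets of matriptase or prostasin, 1 rose and 0 fell (median −0.13). Mmp3, a matrix metalloproteinase whose precursor matriptase can activate, rose 54.7-fold, with a log2 level of 10.22 ± 0.60 in Brg1 cKO and 4.44 ± 0.15 in wildtype eyes (adjusted p = 0.000537). Epcam, an epithelial adhesion molecule cleaved by matriptase, had a change of −1.11 ± 0.35 (adjusted p = 0.404). Of 7 other Kunitz domain inhibitors 0 were called (median −0.18), with Tfpi2 at 1.24 ± 0.48 (0.547).

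Among 12 other inhibitors of serine proteases, 2 rose and 0 fell in Brg1 cKO eyes (median 0.66). Over the array 0.623% of probe sets were called. Slpi, a secreted inhibitor of leukocyte proteases, rose 19.8-fold (log2 level 8.23 ± 0.89 in Brg1 cKO and 3.93 ± 0.65 in wildtype eyes, adjusted p = 0.0153). Serpina3n, an acute phase serpin, rose 31.1-fold (8.51 ± 0.74 in Brg1 cKO and 3.55 ± 0.42 in wildtype eyes, adjusted p = 0.00428). The wildtype levels of Mmp3, Slpi and Serpina3n were dim, so these folds are approximate. Of these 12 inhibitor genes 11 had positive changes. Of the 7 other Kunitz domain inhibitor genes 5 had negative changes, and 47.5% of all genes were negative. Among the members with Kunitz domains, Spint2 had negative changes and Spint1 a positive one (0.36).

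Markers of several cell types also differed in Brg1 cKO eyes. For comparison, 0.623% of all probe sets were called, 0.26% as lower, and 47.5% of all genes had negative changes. The mean log2 level of 26 surface epithelium genes was 6.66 to 7.62 in Brg1 cKO and 7.99 to 8.38 in wildtype arrays, with 0 called higher, 2 called lower and 23 of 26 changes negative. The 2 that fell were Krt12, the keratin of corneal epithelium, with a change of −3.70 ± 0.20 (adjusted p = 0.000546), and the epithelial transcription factor gene Ehf, with −3.62 ± 0.33 (0.00717). The lens list of 9 genes was at 7.24 to 9.29 in Brg1 cKO and 10.64 to 10.83 in wildtype arrays, with 0 called higher and 2 called lower, the lens connexin gene Gja3 (−2.89) and the fibre cell nuclease gene Dnase2b (−4.45). The list of 17 neutrophil and macrophage genes was at 6.38 to 7.90 in Brg1 cKO and 4.76 to 5.16 in wildtype arrays, with 4 called higher and 0 lower, namely S100a8 (5.01), S100a9 (4.48), Fpr2 (5.15) and Clec4d (5.69). The 14 cornified skin genes (median change 0.13) and the 8 retina genes (0.17) had 0 calls. Brg1 cKO replicate 1, the lowest for Spint2, was also the lowest of the 3 for surface epithelium (6.66). The highest for Spint2, replicate 3, had a surface epithelium level of 7.26, between the others. The part of these markers in the Spint2 and Prss8 values was not tested. The lists were chosen with earlier results of these data known, so their directions are no independent evidence.

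Beside the St14 values of the Snf2h experiment, the surface epithelium list was at 6.66 to 7.61 in Snf2h cKO and 6.94 to 8.10 in wildtype arrays, which overlapped, and 19 of 26 changes were negative (median −0.31, against −0.045 over all genes). The retina list of 8 genes was at 8.81 to 9.46 in Snf2h cKO and 8.05 to 8.47 in wildtype arrays, with 8 of 8 changes positive (median 0.91, or 0.74 without wildtype replicate 3). The lens list was at 9.52 to 10.46 in Snf2h cKO and 10.05 to 10.80 in wildtype arrays, which overlapped, with 7 of 9 changes negative (median −0.41), or 9 of 9 (median −0.50) without wildtype replicate 3. Some genes of the retina list were listed because they were known to be higher in these arrays, so its direction is no independent evidence. The Gapdh 3' minus 5' difference separated the same groups, at 0.77 to 0.99 in Snf2h cKO and 1.09 to 4.47 in wildtype arrays, and the part of either in the St14 values was not tested. All 15 measured substrates and targets had negative changes in Snf2h cKO eyes (median −0.37, where 56.1% of all genes were negative), or 12 of 15 without wildtype replicate 3. Type II transmembrane proteases were negative for 8 of 9 genes, or 5 of 9 without that array.

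**Figure D4:**
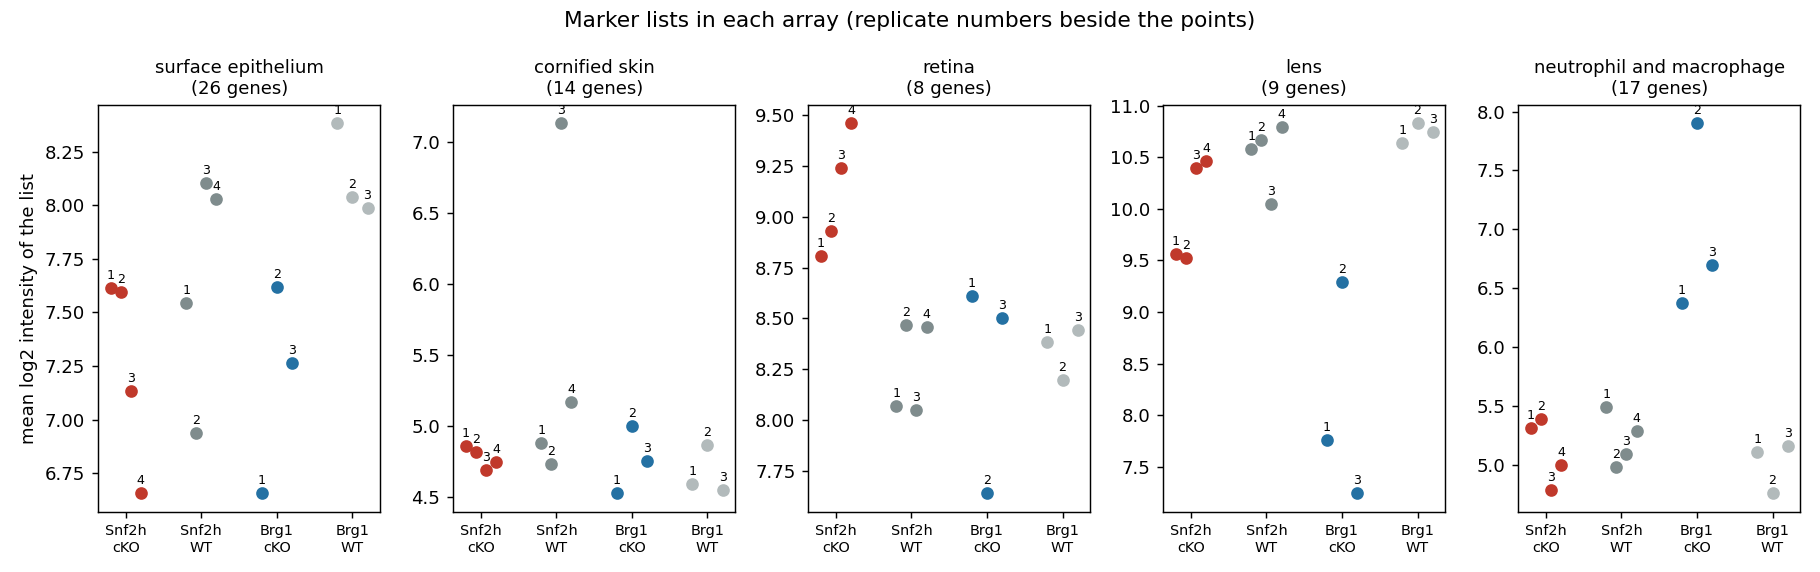
Mean log2 intensity of 5 marker lists (vertical axes, each with its own range) in every array of the 4 groups, with replicate numbers beside the points. The retina list is higher in all 4 Snf2h cKO arrays (8.81 to 9.46) than in their wildtype arrays (8.05 to 8.47), and the surface epithelium list is lower in all 3 Brg1 cKO arrays than in their wildtype arrays. The lists were chosen with earlier results of these data known.

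The genes with patterns most like each member were taken as those with the highest Pearson correlation of log2 level over the 14 arrays, which reflects differences between groups as well as within them. For St14 these were Dusp26 (r = 0.93), Ints9 (0.93), Nfatc2 (0.92), Kcnc1 (0.92) and Gabrd (0.91). In the Snf2h experiment, whose contrast chose St14, these genes also rose, by 0.66, 0.41, 0.68, 1.09 and 0.90. Their likeness to St14 therefore contains that contrast, and nothing is read from it. After subtraction of group means, which leaves only the spread between replicates, their correlations with St14 were lower, at 0.73, 0.43, 0.77, 0.43 and 0.34. For Prss8 the nearest were Ap1m2 (0.95), Kcnn4 (0.92), Elf5 (0.91), Crybg1 (0.90) and Krt23 (0.88). Ap1m2 encodes an adaptor subunit of epithelial cells and Elf5 an epithelial transcription factor, and these 5 kept correlations of 0.88 to 0.98 after subtraction of group means. Prss8 was dim, and its highest value (6.00) was that of Snf2h wildtype replicate 3, the array with high skin markers. The part of that array in these correlations was not tested. For Spint1 the nearest were Col18a1 (0.94), Ranbp10 (0.93), Npepl1 (0.93), Pld2 (0.92) and Cyp2s1 (0.92), a correlation that includes the outlying wildtype replicate 3. After subtraction of group means the correlations of these Spint1 genes were 0.82 to 0.88. For Spint2 (1438968_x_at) they were Dcc, Actr6, C1d, Pdgfc and Sgce, at 0.86 to 0.88, and lower at 0.66 to 0.80 after subtraction of group means. The lists for the 4 members shared no gene, and the near-identical Snf2h cKO arrays count as 2 points in each correlation.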

How the data were processed

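Total RNA from 14 whole-eye samples was amplified and hybridised to single-colour Affymetrix arrays. The values deposited by the authors are intensity per probe set, not logged. RMA is named in the submitters' processing notes (its version, and whether the experiments were processed together, are not given in the sources used here). The log2 was taken with no further scaling or filter. Of 22690 probe sets, 64 controls, 691 with several genes and 1555 with no gene in the array annotation were left out. The remaining 20380 were fitted with limma 3.58.1 (lmFit, eBayes) in R 4.3.3, separately per experiment, two-sided, with Benjamini-Hochberg adjustment over all of them and calls at an adjusted p under 0.05. List genes were represented by their brightest probe set, and named by the smallest p, up to 4 per list. The members, lists and tests were chosen with earlier results of these data known. The labels do not say that replicates came from separate animals, so p-values measure the spread between samples. The fit was tested on simulated data. The number of arrays limits the precision. Alternatives were quantile normalisation, 1 probe set per gene, a filter on dim probe sets, trended robust eBayes, array weights, a replicate block, 1 fit over 14 samples, averaging Snf2h cKO replicates 1 and 2 and leaving out each array. List medians without Snf2h wildtype replicate 3, and the differences of St14 and its partners with each array left out, were added after seeing the data.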

Additional observations from a re-analysis of the deposited data

Results flagged for a closer look

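Among the 4 Snf2h wildtype arrays, replicate 3 lay far above the others for Spint1, at a log2 level of 7.89 against 6.65 to 6.83. In the same group replicate 1 lay below the others for St14, at 6.68 against 6.83 to 6.84. Such a gap is found by chance in about 1 in 20 groups, and 10 groups of 4 arrays were examined here.

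For Spint1 every Snf2h cKO array lay below the mean of its wildtype arrays and every Brg1 cKO array above it, with changes of −0.39 and 0.36. The Snf2h side rests on wildtype replicate 3: cKO replicates 1 and 2 (6.86 and 6.89) lay above the remaining wildtype arrays (6.65 to 6.83), and the change without it was −0.097. For Spint2 on 1451935_a_at every Snf2h cKO array lay above and every Brg1 cKO array below, with changes of 0.42 and −0.77. The other Spint2 probe set, 1438968_x_at, did not show this. Its changes were 0.12 and −0.72, and Snf2h cKO replicate 4 (7.70) lay below the wildtype mean (8.14). The share of all probe sets with such opposite sides was not counted, and these differences between the knockouts were not tested.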

How the results depend on the processing

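In the Brg1 experiment 0 member probe sets passed the test among those present in each of the 13 alternatives: 2 after dim probe sets were filtered out, 4 in the fit of 1 probe set per gene (1451935_a_at dropped) and 5 in the others. The changes of Prss8, Spint1 and Spint2 kept their direction under the alternatives run, and that of St14 kept it except without Brg1 cKO replicate 3, where it was 0.043 (−0.36 to 0.043 over the arrays left out). The number of called probe sets over the array was 127, but 50 with a replicate block, 25 with the filter on dim probe sets, which removes St14, Prss8 and Spint1, 280 in 1 fit over 14 samples and 25 to 199 with each array left out. Of 115 list genes 11 were called, against 6 with the dim filter, 18 with array weights, 22 in 1 fit over 14 samples and 6 to 20 with each array left out. The cause of these differences was not tested. No sign of a pairing by replicate number was seen, although so few arrays per group cannot settle whether there was one. Deviations of same-numbered arrays correlated at 0.066 to 0.13 in the Brg1 and −0.23 to 0.057 in the Snf2h experiment. In both experiments 0 arrays correlated best with their own number. In the Snf2h experiment St14, Spint1 and Spint2 on 1451935_a_at kept their direction under every alternative run, although Spint1 shrank to −0.097 without wildtype replicate 3. The direction turned for Prss8 without wildtype replicate 3 (0.20) or cKO replicate 3 (0.077), and for Spint2 on 1438968_x_at without cKO replicate 1 (−0.046).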
